A study of Mus musculus with 45 samples.

Results

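Unstimulated mouse embryonic fibroblasts (MEFs) lacking p53 were compared with unstimulated wild-type (WT) MEFs by RNA sequencing. The comparison used every library taken at 0 h, before any stimulus was added. It held 9 of the 45 libraries of a study of the inflammatory response to interleukin-1b, tumour necrosis factor (TNF) and lipopolysaccharide (LPS): 6 p53KO libraries and 3 WT libraries. Each time course had its own 0 h sample. Both p53KO lines, called KO-1 and KO-2, and the single WT line gave 3 libraries each, from the IL-1b, the LPS and the TNF course. All 9 libraries came from primary MEFs of C57BL/6 embryos that had been kept overnight in 0.5% bovine calf serum and received no agent. The p53KO cells are labelled by genotype only. The labels do not give the part of Trp53 that was deleted, and the study's design text describes the WT cells as littermate controls and the p53KO cells as chosen because p53 loss prolongs the life of primary MEFs in culture. KO-1 and KO-2 are described as biological replicates, without a statement that they came from separate embryos. WT is 1 line, and the 3 libraries of a line are not independent cultures for certain, so the p-values measure the spread between these libraries and not between embryos.

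p53, encoded by Trp53, is a transcription factor that is held at a low level in resting cells by the ubiquitin ligase Mdm2, one of its own targets. It binds a pair of adjacent consensus motifs in DNA and raises the transcription of genes that stop the cell cycle, permit cell death or act in DNA repair and metabolism. Passaging of MEFs in culture activates the pathway and ends their growth, while MEFs without p53 go on dividing.

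Read counts per gene were scaled to library size (CPM) after edgeR's TMM adjustment for differences in composition, and each gene was tested with edgeR's quasi-likelihood test with the time course as a block. A gene was called higher or lower in p53KO at a Benjamini-Hochberg adjusted p under 0.05 over all 12960 genes tested, and differences are log2 of p53KO over WT. The libraries held 7621412 to 11348859 counts over 16513 to 17324 detected genes. The counts of libraries of 1 line differed by 1.35 to 3.79 times the variance of pure counting, those of KO-1 and KO-2 of the same course by 3.69 to 4.81 times and those of p53KO and WT of the same course by 21.9 to 28.2 times. The first principal component held 65.9% of the variance and separated the 6 p53KO libraries from the 3 WT libraries. Of fibroblast markers, all 12 were detected, and their summed level was 26054 to 29264 CPM in p53KO and 28013 to 31284 CPM in WT libraries. These are bulk samples, in which fewer cells of a type and less RNA per cell cannot be told apart.

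At 0 h, 2854 genes (22% of those tested) were higher in p53KO and 2822 (21.8%) were lower, 43.8% in all. A difference of at least 2-fold was less common, with 550 genes higher (4.24%) and 287 lower (2.21%). The median difference over all genes was 0.01, and the median size of a difference was 0.191 on the log2 scale, against 0.0955 between KO-1 and KO-2. When the 3 libraries of each line were summed, which leaves both KO lines against 1 WT line, 1805 genes (13.9%) were higher and 1487 (11.5%) lower. Of the genes with at least a 2-fold difference, 527 of 550 higher and 282 of 287 lower genes were called in that fit too.

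**Figure D1:**
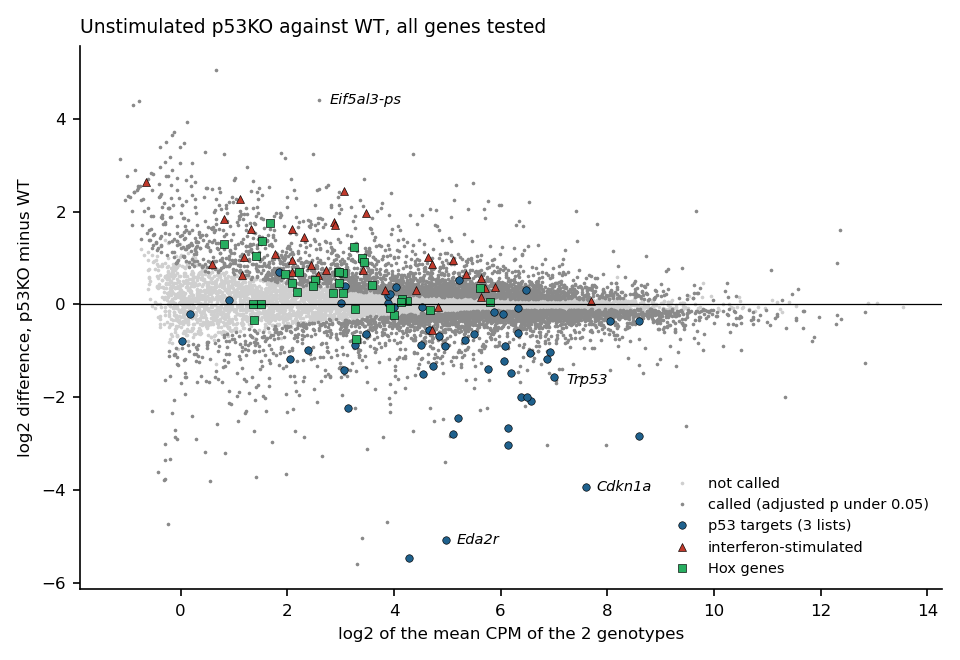
Difference between genotypes at 0 h (vertical axis, log2 of p53KO over WT) against level (horizontal axis, log2 of the mean CPM of both genotypes). Each point is 1 gene, dark grey where called and light grey where not, with p53 targets as blue circles, interferon-stimulated genes as red triangles and Hox genes as green squares. Genes with no count in 1 genotype are not drawn. The called genes lie on both sides of 0, with 2854 higher and 2822 lower in p53KO.

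Trp53 itself was reduced but not absent. The gene (ENSMUSG00000059552, chromosome 11, 69393861 to 69405375, plus strand on mm9) had 72.0, 67.6 and 58.1 CPM in KO-1 and 66.4, 61.4 and 59.4 CPM in KO-2, against 200.2, 197 and 197 CPM in WT. Every p53KO library was below every WT library, and the means were 64.2 ± 5.40 CPM in p53KO libraries and 198 ± 1.87 CPM in WT libraries (SD, n = 6 and 3, as for all means here; log2 difference -1.63, SE 0.05, adjusted p = 1.64e-12). KO-1 and KO-2 lay at -1.58 and -1.66 against WT. The counts are per gene and the labels do not give the deleted exons, so the table cannot show which part of the transcript was left. Wrap53, which overlaps Trp53 on the opposite strand, was not called (-0.11). The strand setting of the counting is not given in the sources used here, so reads of this pair cannot be told apart.

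Established p53 targets were mostly lower in p53KO cells. Of 53 tested targets in 3 lists, 37 were lower in p53KO, against a background of 21.8%, 5 were higher and 11 were not called, with a median of -0.88, against 0.01 for all genes. These lists, like the others here, were drawn up with earlier results of these data known, so the contrast with all genes is descriptive. The median was -0.88 for KO-1 and -0.84 for KO-2 set against the same WT libraries. In 41 of the 53 the p53KO and WT ranges did not overlap, as they did not in 4932 (38.1%) of all genes tested.

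Among targets that arrest the cycle or feed back on p53, 15 of 18 were lower and the median was -1.35. Cdkn1a, the p21 inhibitor of cyclin-dependent kinases (chromosome 17, 29227924 to 29237667, plus strand on mm9), had a lowest of 20.7, a median of 24.8 and a highest of 25.8 CPM in the 6 p53KO libraries, against 372, 364 and 359 CPM in the 3 WT libraries. It was 15.3-fold lower in p53KO, with no overlap between the groups (log2 difference -3.93, SE 0.06, adjusted p = 2.51e-16). Ccng1, cyclin G1, which recruits a phosphatase to Mdm2, had a lowest of 88.5, a median of 92.7 and a highest of 105 CPM in the 6 p53KO libraries, against 662, 668 and 713 CPM in the 3 WT libraries (log2 difference -2.84, SE 0.04, adjusted p = 1.77e-16). Mdm2, the ligase that degrades p53, had a lowest of 58.7, a median of 65.0 and a highest of 67.2 CPM in the 6 p53KO libraries, against 193, 186 and 191 CPM in the 3 WT libraries (log2 difference -1.57, SE 0.04, adjusted p = 1.07e-12). For all 3 genes every p53KO library was far below every WT library. Psrc1, a spindle protein, differed by -2.79, Phlda3, an inhibitor of Akt signalling, by -2.0 and Btg2, an antiproliferative cofactor of mRNA decay, by -1.99. The sole member that was higher was Sesn1, an inhibitor of mTORC1 signalling (0.38), while its relative Sesn2 was lower (-0.62). The phosphatase gene Ppm1d (-0.05) and the noncoding RNA Trp53cor1 (-0.78) were not called.

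Of targets that act in cell death, 12 of 15 were lower, none was higher and the median was -0.87. Eda2r, a TNF receptor family member, had a lowest of 1.03, a median of 1.49 and a highest of 3.06 CPM in the 6 p53KO libraries, against 63.8, 62.0 and 57.6 CPM in the 3 WT libraries. This receptor was close to the detection limit in p53KO and 33.6-fold lower (log2 difference -5.07, SE 0.14, adjusted p = 6.69e-13). Bax, the BCL-2 family member that opens the outer mitochondrial membrane, had a lowest of 70.4, a median of 80.4 and a highest of 85.4 CPM in the 6 p53KO libraries, against 168, 164 and 158 CPM in the 3 WT libraries (log2 difference -1.03, SE 0.05, adjusted p = 2.68e-10). Aen, an apoptosis-enhancing nuclease, the death receptor Tnfrsf10b, the decoy receptor Tnfrsf23 and Ei24 differed by -1.47, -1.39, -0.76 and -1.04. The BH3-only members Bbc3 (-0.64) and Pmaip1 (-0.64), known as Puma and Noxa, were lower as well. Apaf1, the core of the apoptosome (-0.08), Trp53i11 (0.02) and Casp1 (-0.21) were not called.

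Targets in repair and metabolism were mixed, with 10 of 20 lower, 4 higher and a median of -0.19. Dglucy, D-glutamate cyclase, averaged 0.844 ± 0.165 CPM in p53KO libraries and 38.1 ± 3.53 CPM in WT libraries (log2 difference -5.47, SE 0.12, adjusted p = 7.76e-14), and Ephx1, microsomal epoxide hydrolase, averaged 15.5 ± 1.99 CPM in p53KO libraries and 126 ± 7.42 CPM in WT libraries (log2 difference -3.02, SE 0.08, adjusted p = 4.79e-13). The p53KO and WT ranges of both were far apart. Ak1, adenylate kinase, differed by -2.67, the mTORC1 inhibitor Ddit4l by -2.22, the translesion polymerase Polk by -1.34 and the ribosomal protein gene Rps27l by -1.17. Among the higher members were Gadd45a (0.52), Fdxr (0.41) and Ddb2 (0.70). Several genes often used as p53 readouts, the repair gene Xpc (0.04), the ribonucleotide reductase subunit Rrm2b (0.19), Tigar (-0.05) and Gls2 (0.10), were not called.

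**Figure D2:**
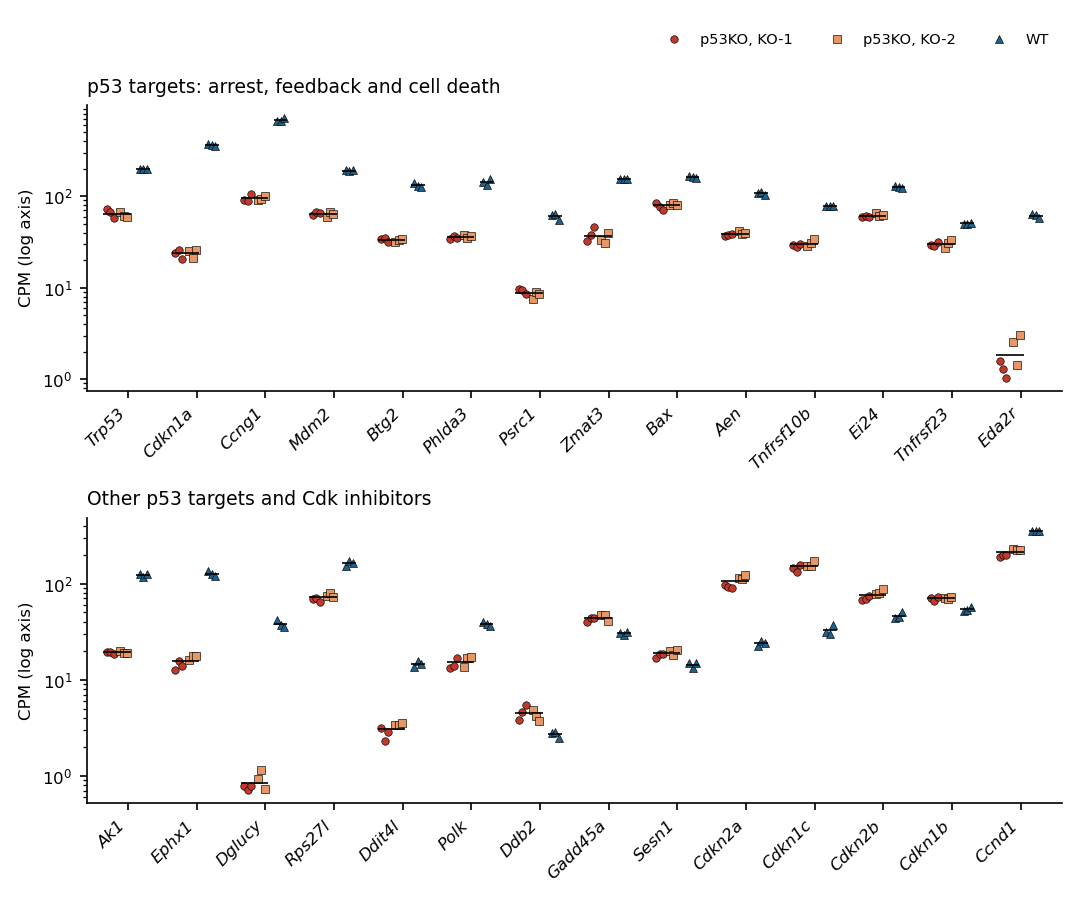
Level of Trp53, of p53 targets and of inhibitors of cyclin-dependent kinases in each library at 0 h, in CPM on a log axis. Circles are KO-1, squares KO-2, triangles WT, and bars mark the genotype means. Cdkn1a lies between 20.7 and 25.8 CPM in p53KO and between 359 and 372 CPM in WT, while Cdkn2a and Cdkn1c lie above WT in all 6 p53KO libraries.

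The promoters of several of these targets hold the p53 motif, and 4 are shown from targets that hold it and were lower in p53KO. The windows ran from 250 bases before to 50 bases after each start of a gene (RefSeq, GRCm38.p6). There were 12652 windows, and a gene with several starts was given its best match. Both strands were searched for the p53 response element, a pair of p53 consensus motifs of 10 bases with at most 1 base between them. No mismatch was allowed at the C and G in the core of each motif. Capitals mark the element, with 20 bases on either side, written 5′ to 3′ along the gene's strand.
Cdkn1a, chr17:29090908-29090967, plus strand: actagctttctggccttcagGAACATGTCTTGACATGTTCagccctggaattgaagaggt
Ccng1, chr11:40755442-40755501, minus strand: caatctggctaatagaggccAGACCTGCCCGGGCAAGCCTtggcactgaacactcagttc
Rps27l, chr9:66946276-66946335, plus strand: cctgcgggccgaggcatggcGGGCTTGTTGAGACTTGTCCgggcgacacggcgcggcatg
Bax, chr7:45467059-45467119, minus strand: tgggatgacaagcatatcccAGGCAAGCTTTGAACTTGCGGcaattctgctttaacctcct
The first 3 depart from the consensus at 1 base and Bax at 2. Positions are counted from the gene start around which the window with the match was taken. Elements run from base -51 to -32 in Cdkn1a, -195 to -176 in Ccng1, -117 to -98 in Rps27l and -201 to -181 in Bax. With at most 1 mismatch the element was found in 7 of 9839 tested genes with a window (0.0711%). Of these, Cdkn1a, Ccng1, Gtse1, Rps27l, Calhm2 and Mthfd1 were lower in p53KO and Ppfibp2 was higher. It was in 6 of 2205 lower genes (0.272%), 1 of 2150 higher genes (0.0465%) and 0 of 5484 genes not called, and in 4 of the 202 genes at least 2-fold lower (1.98%). With at most 2 mismatches it was in 34 lower (1.54%), 15 higher (0.698%) and 40 genes not called (0.729%). Of listed targets with a window it was then in 5 of 14 for arrest, 1 of 12 for cell death and 1 of 15 for repair and metabolism. With at most 1 mismatch these were 3, 0 and 1, so most listed targets held no match in these windows. A match is a description of the letters and not a binding site.

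The inhibitors of cyclin-dependent kinases did not move together. While Cdkn1a was lower, Cdkn2a, which encodes p16Ink4a and the Mdm2 inhibitor p19Arf, had a lowest of 90.1, a median of 105 and a highest of 124 CPM in the 6 p53KO libraries, against 22.2, 25.01 and 24.3 CPM in the 3 WT libraries. It was 4.42-fold higher in p53KO (log2 difference 2.14, SE 0.11, adjusted p = 9.35e-10), and its KO-1 minus KO-2 difference was -0.32. Cdkn1c, the imprinted inhibitor p57Kip2, had a lowest of 132, a median of 153 and a highest of 173 CPM in the 6 p53KO libraries, against 31.6, 30.0 and 37.3 CPM in the 3 WT libraries (log2 difference 2.20, SE 0.07, adjusted p = 1.65e-12). Cdkn2b, p15Ink4b, and Cdkn1b, p27Kip1, were higher by 0.71 and 0.38. The D cyclins Ccnd1 and Ccnd2, which start the cycle in response to growth factors, were lower (-0.75 and -0.54), and Ccnd3 was higher (0.29). Of the 23 cyclins, kinases and inhibitors tested, 4 were higher and 8 lower, against 22% and 21.8% of all genes, with a median of -0.05.

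Genes of DNA replication and mitosis showed small differences in these serum-starved cells. Of 40 tested, 5 were higher (12.5%) and 11 lower (27.5%), against 22% and 21.8% of all genes, none differed 2-fold and the median was -0.05. The share of lower genes was thus near that of all genes and the share of higher genes below it. The replication clamp Pcna (-0.33) and the ribonucleotide reductase subunits Rrm1 (-0.26) and Rrm2 (-0.45) were lower. The 5 higher were Top2a (0.21), Mki67 (0.38), Bub1b (0.17), Cenpe (0.25) and Cenpf (0.41). In the line totals 1 was higher and 7 lower, and 1 to 3 were higher when any 1 WT or KO-1 library was left out. KO-1 exceeded KO-2 at 10 of the 40 and was below it at none, against 7.66% and 5.09% of all genes. Of p53's relatives and regulators, 2 of 10 were higher and 2 lower, 20% each and near the shares of all genes. The higher were Cdkn2a and the kinase gene Atm (0.31). Trp53 and Ppp1r13l, which encodes the p53 inhibitor iASPP (-0.27), were lower. Ppp1r13l was not called in the line totals (adjusted p = 0.0583). Mdm4 (0.12), Chek1 (0.05) and Chek2 (0.13) were not called.

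In the BCL-2 family, 2 of 10 genes were higher and 5 lower, against 22% and 21.8% of all genes. The pro-death genes Bmf and Bcl2l11 were higher (1.70 and 0.95). The protective Bcl2l1, which encodes Bcl-xL, Mcl1 and Bcl2l2 were lower (-0.55, -0.21 and -0.35), as were the pro-death Bok (-0.33) and Bid (-0.50). Bax, Bbc3 and Pmaip1, pro-death members of the family counted among the p53 targets above, were lower too. Pro-death members thus differed in both directions.

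Interferon-stimulated genes were higher in p53KO cells that had received no stimulus. Of 33 tested, 28 were higher, against a background of 22%, 1 was lower and 4 were not called. The median was 0.86, and 13 of the 33 were called and at least 2-fold higher, against 4.24% of all genes. Ifit1, an inhibitor of translation of viral RNA, had a lowest of 8.70, a median of 11.4 and a highest of 13.5 CPM in the 6 p53KO libraries, against 4.11, 3.56 and 2.06 CPM in the 3 WT libraries (log2 difference 1.78, SE 0.20, adjusted p = 3.24e-06). Igtp, an interferon-induced GTPase, averaged 6.47 ± 1.06 CPM in p53KO libraries and 2.05 ± 0.83 CPM in WT libraries (log2 difference 1.64, SE 0.19, adjusted p = 5.85e-06), and Bst2, tetherin, which holds virus particles on the cell, averaged 33.2 ± 4.64 CPM in p53KO libraries and 16.4 ± 0.804 CPM in WT libraries (log2 difference 1.02, SE 0.11, adjusted p = 3.44e-06). Isg15, a ubiquitin-like modifier, had a lowest of 11.9, a median of 15.9 and a highest of 26.3 CPM in the 6 p53KO libraries, against 4.67, 4.86 and 3.98 CPM in the 3 WT libraries (log2 difference 1.96, SE 0.30, adjusted p = 8.03e-05). Transcription factors that carry the interferon signal were higher too, Stat2 by 0.96, Irf7 by 0.97 and Irf9 by 0.86. Isg15 and these 3 factors were named after their values were seen. Ifi27 was the sole member that was lower (-0.56), and Ifit2 (-0.05), Trim25 (0.16), Parp14 (0.64) and Ifitm3 (0.07) were not called.

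The rise was larger in KO-1. Against the shared WT libraries the median was 1.04 for KO-1 and 0.70 for KO-2, and KO-1 exceeded KO-2 in 19 of the 33 and was below it in none, against 7.66% and 5.09% of all genes. For Isg15 the KO-1 libraries had 23.3, 26.3 and 18.8 CPM, the KO-2 libraries 12.7, 12.96 and 11.9 CPM and the WT libraries 4.67, 4.86 and 3.98 CPM. In the line totals 25 of the 33 were higher and 1 lower. Markers of macrophages, which respond to interferon, had a summed level of 429 to 536 CPM in p53KO and 547 to 564 CPM in WT libraries. Lyz2 made up a large part of that sum, at 181 ± 17.3 CPM in p53KO libraries and 270 ± 8.99 CPM in WT libraries. Of 14 tested, 3 were higher, 1 lower (Lyz2) and 10 not called, against 22% higher and 21.8% lower of all genes. The part of macrophages in this result was not tested.

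Shown are promoters of 4 higher genes of this list that hold a motif of the kind that interferon-activated factors bind. The same windows were searched for GAAANNGAAA on both strands, that is also for TTTCNNTTTC, and overlapping matches were merged. Capitals mark the matches.
Isg15, chr4:156200855-156200916, minus strand: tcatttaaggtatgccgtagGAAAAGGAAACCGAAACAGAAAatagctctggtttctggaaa
Ifit1, chr19:34640765-34640833, plus strand: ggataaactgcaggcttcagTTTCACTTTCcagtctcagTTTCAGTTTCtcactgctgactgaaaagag
Rsad2, chr12:26456543-26456592, minus strand: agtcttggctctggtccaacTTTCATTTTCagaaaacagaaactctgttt
Bst2, chr8:71537567-71537622, minus strand: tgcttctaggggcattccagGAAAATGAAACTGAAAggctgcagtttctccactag
Isg15 holds 3 overlapping matches, Ifit1 2 separate ones, Rsad2, the antiviral gene viperin, 1, and Bst2 2 overlapping ones. The motif was found in 15 of 26 listed interferon genes with a window (57.7%) and in 352 of all 9839 (3.58%). Of those 15, 14 were higher in p53KO and Ifitm3 was not called. Over all genes it was in 4.14% of higher, 3.72% of lower and 3.3% of genes not called, close to the share in all genes for each.

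**Figure D3:**
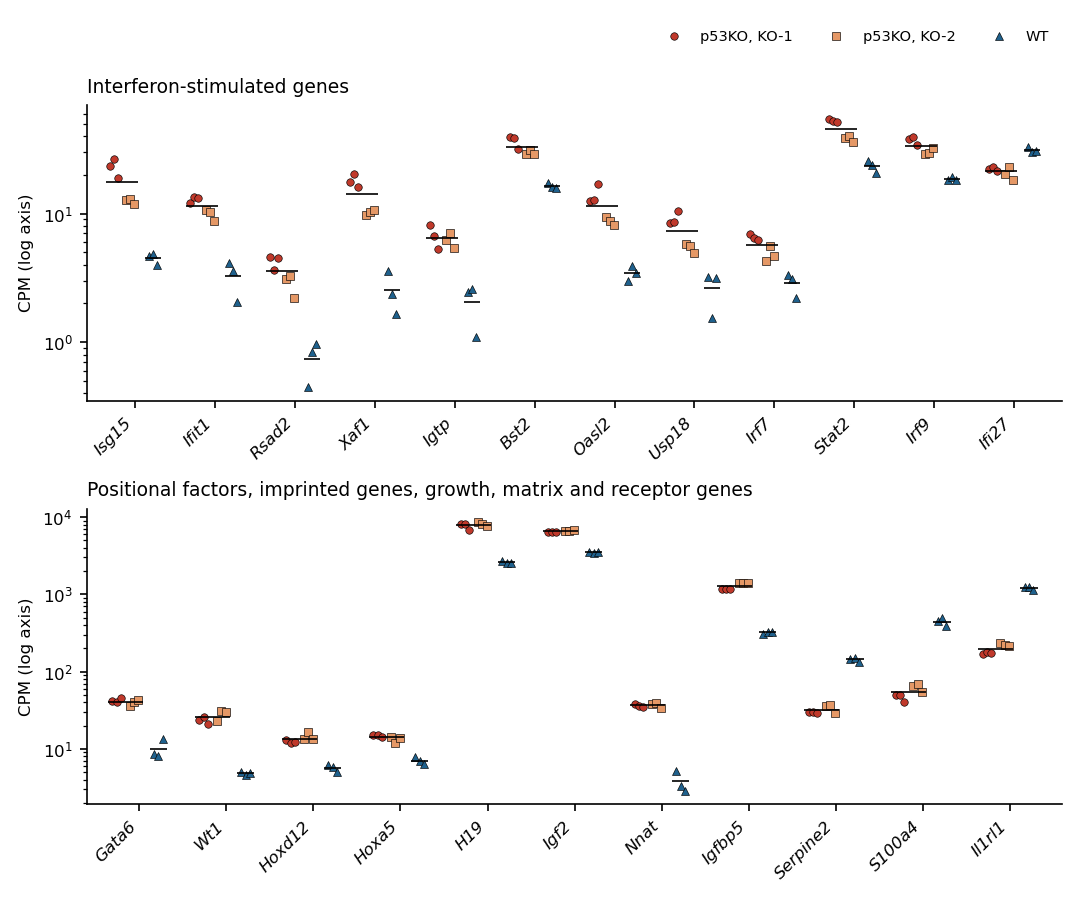
Level in each library at 0 h, in CPM on a log axis, of interferon-stimulated genes and of positional factors, imprinted, growth, matrix and receptor genes. Circles are KO-1, squares KO-2, triangles WT, and bars mark the genotype means. Isg15 lies between 11.9 and 26.3 CPM in p53KO and between 3.98 and 4.86 CPM in WT.

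Genes of antigen presentation, many of them also induced by interferon, were mostly not called. Of 13 tested, 4 were higher and 2 lower, against 22% and 21.8% of all genes, with a median of 0.04. Tapbp, which loads peptides onto MHC class I, and the proteasome activator subunit Psme1 were higher (0.43 and 0.43), as were Psme2 (0.37) and the class I heavy chain H2-K1 (0.30), while the heavy chain H2-D1 was lower (-0.33). The peptide transporter Tap1 was lower too, with a lowest of 3.80, a median of 4.33 and a highest of 5.83 CPM in the 6 p53KO libraries, against 10.2, 7.82 and 8.91 CPM in the 3 WT libraries (log2 difference -1.0, SE 0.15, adjusted p = 9.80e-05).

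Chemokine and cytokine genes were mostly lower before any stimulus. Of 21 tested, 12 were lower and 4 higher, against 21.8% and 22% of all genes, with a median of -0.64. Csf1, the macrophage growth factor, averaged 223 ± 14.5 CPM in p53KO libraries and 553 ± 1.75 CPM in WT libraries (log2 difference -1.31, SE 0.05, adjusted p = 1.87e-11). Cxcl5, which attracts neutrophils, had a lowest of 7.11, a median of 8.96 and a highest of 10.5 CPM in the 6 p53KO libraries, against 41.7, 39.5 and 44.7 CPM in the 3 WT libraries (log2 difference -2.23, SE 0.11, adjusted p = 2.90e-10), and Ccl7, which attracts monocytes, differed by -1.07. The WT libraries were thus above every p53KO library for Csf1 and Cxcl5. The 4 higher members, named because they are few, were Cxcl10 (2.15) and Ccl5 (2.15), both also induced by interferon, the stromal chemokine Cxcl12 (0.71) and Il33 (2.69).

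Among receptors and adaptors for the stimuli of the time courses, 7 of 19 were lower and 1 higher, against 21.8% and 22% of all genes, with a median of -0.05, and 4 were lower in the line totals. The IL-33 receptor Il1rl1, ST2, had a lowest of 167, a median of 196 and a highest of 233 CPM in the 6 p53KO libraries, against 1242, 1257 and 1147 CPM in the 3 WT libraries (log2 difference -2.62, SE 0.08, adjusted p = 3.46e-12). The IL-1 receptor accessory chain Il1rap and the LPS receptor Tlr4 were lower by a smaller amount (-0.65 and -0.66), and Irak3, which dampens the signal, was higher (0.48). Il1r1, the IL-1 receptor, differed by -0.26, and Tnfrsf1a, the main TNF receptor, was not called (-0.05). Of 20 NF-kB subunits and feedback genes, 1 was higher (5%), the cofactor Bcl3 (0.85), and 5 were lower (25%), with a median of -0.08. Over all genes 22% were higher and 21.8% lower, so that the share of lower members was near that of all genes. The 5 were the subunits Nfkb1 (-0.34), Nfkb2 (-0.22) and Rela (-0.22), the kinase gene Chuk (-0.32) and the adaptor Traf3 (-0.21). In the line totals 2 of the 20 were lower.

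Matrix genes were lower more often than higher. Of 37 collagens and matrix proteins, 19 were lower and 8 higher, against 21.8% and 22% of all genes, with a median of -0.17, and the summed level was 68032 to 74605 CPM in p53KO and 82804 to 85274 CPM in WT libraries. Lox, which cross-links collagen, averaged 2694 ± 164 CPM in p53KO libraries and 4624 ± 287 CPM in WT libraries (log2 difference -0.78, SE 0.03, adjusted p = 5.61e-11). Col5a2 and Col18a1 were lower (-0.51 and -1.45), as was Thbs1, thrombospondin (-1.26). Col1a1 (-0.05) and Col1a2 (0.02), the main fibroblast collagens, were not called. KO-1 and KO-2 differed at 23 of the 37, against 12.8% of all genes, with KO-1 above at 12 and below at 11.

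Inhibitors and activators of matrix proteolysis showed larger differences. Of 22 tested, 11 were lower and 3 higher, against 21.8% and 22% of all genes, with a median of -0.29. Serpine2, an inhibitor of serine proteases, had a lowest of 28.8, a median of 30.0 and a highest of 37.0 CPM in the 6 p53KO libraries, against 147, 151 and 135 CPM in the 3 WT libraries. It was 4.52-fold lower in p53KO (log2 difference -2.18, SE 0.06, adjusted p = 1.14e-12), with the libraries of both KO lines below WT. Timp1, an inhibitor of metalloproteases, was lower (-1.16). The 3 higher were the proteases Mmp11 (0.69), Mmp14 (0.35) and Adamts4 (0.78). All 18 contractile genes and targets of serum response factor were called, 12 lower and 6 higher, against 21.8% and 22% of all genes, with a median of -0.31. Ccn1 and Ccn2, matricellular proteins, were lower (-0.99 and -0.98), and Des, the muscle intermediate filament desmin, was higher (1.72). The 5 others that were higher were Cnn1 (0.41), Actg2 (0.44), Myh11 (1.87), Flna (0.22) and the smooth muscle cofactor Myocd (1.51). KO-1 exceeded KO-2 at 8 of the 18 and was below it at none, where over all genes these shares were 7.66% and 5.09%.

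Genes of oxidative stress defence and metal binding were lower more often than higher. Of 18 tested, 10 were lower and 2 higher, against 21.8% and 22% of all genes, with a median of -0.13, and 6 were lower in the line totals and when the WT library of the IL-1b or the LPS course was left out. The metallothioneins Mt1 and Mt2 were lower (-0.90 and -1.29), with KO-1 minus KO-2 differences of -0.37 and -0.39. The heme oxygenase gene Hmox1 differed by -0.30. The 2 higher were the cystine transporter Slc7a11 (0.40) and Gsta4 (0.53).

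Growth factors, their binding proteins and receptors changed in both directions, with 10 of 35 higher and 15 lower, against 22% and 21.8% of all genes, and a median of -0.14. The summed level was 10515 to 11261 CPM in p53KO and 6827 to 7079 CPM in WT libraries, and Igf2 made up a large part of it. Igf2, the fetal growth factor, had a lowest of 6407, a median of 6516 and a highest of 6756 CPM in the 6 p53KO libraries, against 3565, 3409.6 and 3578 CPM in the 3 WT libraries (log2 difference 0.89, SE 0.03, adjusted p = 1.64e-11). Igfbp5, which binds it, averaged 1297 ± 125 CPM in p53KO libraries and 322 ± 11.1 CPM in WT libraries (log2 difference 2.01, SE 0.07, adjusted p = 1.71e-11), and Hbegf, an EGF receptor ligand, was lower (-1.0).

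Imprinted genes, which are expressed from one parental copy only, were mostly higher. Of 20 tested, 12 were higher, against a background of 22%, 3 were lower and the median was 0.39. H19, the noncoding RNA beside Igf2, had a lowest of 6824, a median of 8022 and a highest of 8612 CPM in the 6 p53KO libraries, against 2739, 2541 and 2567 CPM in the 3 WT libraries (log2 difference 1.60, SE 0.05, adjusted p = 1.64e-12). Nnat, neuronatin, had a lowest of 34.1, a median of 37.4 and a highest of 39.0 CPM in the 6 p53KO libraries, against 5.23, 3.32 and 2.88 CPM in the 3 WT libraries (log2 difference 3.25, SE 0.11, adjusted p = 8.43e-12). Both genes, like Cdkn1c and Igf2 above, lay above WT in all 6 p53KO libraries. The 3 lower members were Ndn (-0.15), Impact (-0.34) and Dio3 (-2.34). The allele that gave rise to the reads was not analysed here.

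Transcription factors that record a cell's place in the embryo were higher more often than lower. Of 33 Hox genes tested, 17 were higher (51.5%) and 2 lower (6.06%), against 22% and 21.8% of all genes, with a median of 0.40. Hox genes are numbered from the head end to the tail end of the body. Among paralogues 1 to 6, 12 of 15 were higher and none lower, with a median of 0.67, and among paralogues 7 to 13, 5 of 18 were higher and 2 lower, with a median of 0.06, so that the share of higher genes in the second set was near the 22% of all genes. In the b cluster 7 of 8 were higher. Hoxa5, Hoxb3 and Hoxd12 were higher by 1.00, 0.91 and 1.25, and the 2 lower were Hoxa11 (-0.22) and Hoxd8 (-0.75). Of the Hox genes, 13 were higher and 1 lower in the line totals. The split by number and cluster was made after the values were seen.

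Of 43 further factors of limb, head, heart and skeletal mesenchyme, 20 were higher (46.5%) and 7 lower (16.3%), against 22% and 21.8% of all genes, with a median of 0.29. The zinc-finger factor Gata6 averaged 41.1 ± 3.36 CPM in p53KO libraries and 10.1 ± 2.93 CPM in WT libraries (log2 difference 2.05, SE 0.10, adjusted p = 6.57e-10). Wt1, which marks mesothelium and kidney precursors, averaged 25.9 ± 4.09 CPM in p53KO libraries and 4.85 ± 0.203 CPM in WT libraries (log2 difference 2.41, SE 0.15, adjusted p = 6.89e-09). Gata4, the partner of Gata6 in heart and gut mesoderm, named after its values were seen, had a lowest of 8.55, a median of 9.79 and a highest of 14.1 CPM in the 6 p53KO libraries, against 1.22, 1.78 and 2.60 CPM in the 3 WT libraries (log2 difference 2.48, SE 0.22, adjusted p = 2.57e-07). These 3 factors were at more than 2-fold the WT level in KO-1 and KO-2 alike. Of the 43, 1 was lower in the line totals, and 4 were lower when the WT library of the LPS or the TNF course was left out. The labels do not say which embryos or body regions the lines were taken from, and a difference between lines cannot be told apart from one between genotypes where WT is 1 line.

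**Figure D4:**
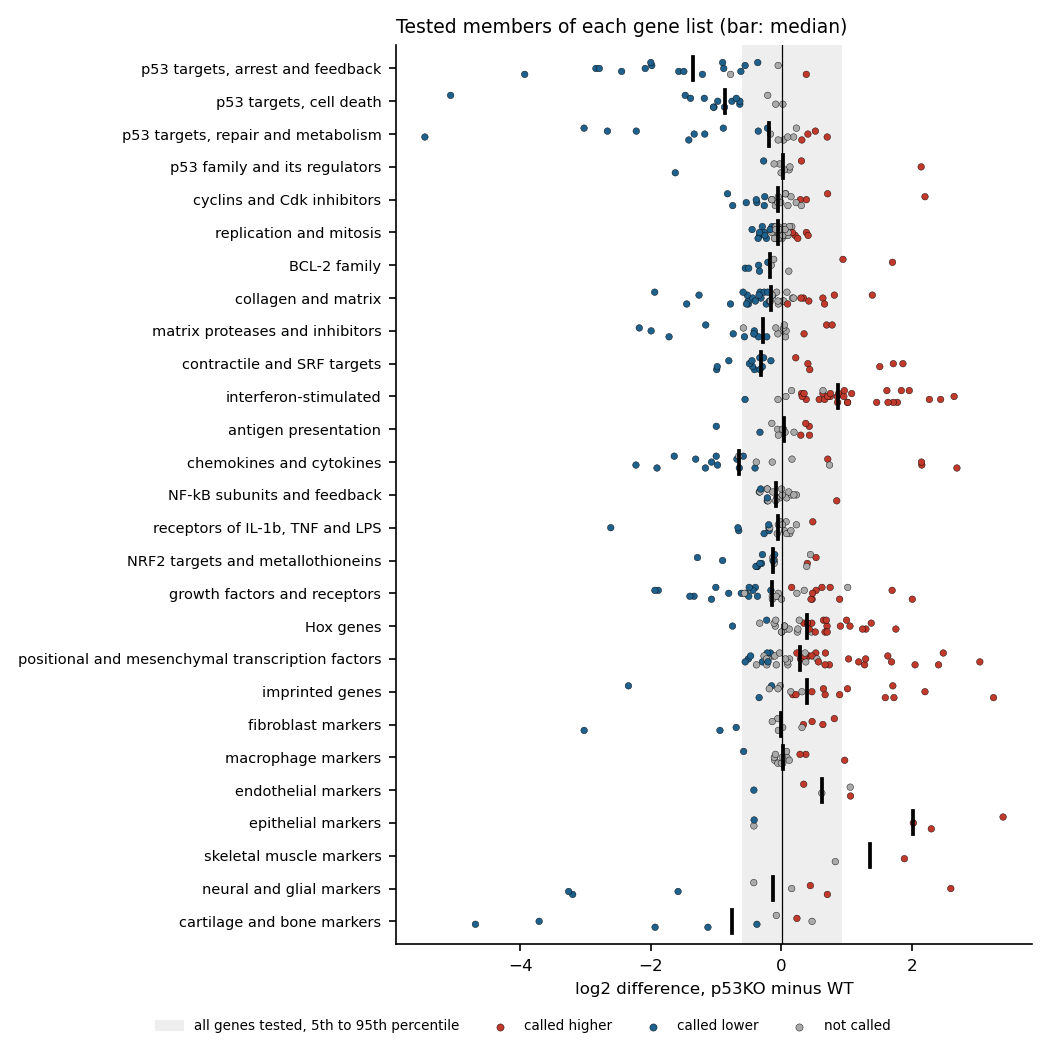
Difference between genotypes at 0 h (log2 of p53KO over WT) for each tested gene of each list. Each point is 1 gene, bars mark the median of a list, and the grey band spans the 5th to the 95th percentile of all 12960 genes tested. The p53 target lists for arrest and for cell death have medians of -1.35 and -0.87, and interferon-stimulated genes a median of 0.86.

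Markers of other cell types were examined in the same libraries. Fibroblast markers were balanced, with 4 of 12 higher and 3 lower, against 22% and 21.8% of all genes. S100a4, a calcium-binding protein, had a lowest of 40.9, a median of 52.2 and a highest of 68.7 CPM in the 6 p53KO libraries, against 455, 491 and 391 CPM in the 3 WT libraries (log2 difference -3.02, SE 0.09, adjusted p = 1.07e-12), and Thy1 and Vim were lower (-0.94 and -0.69). The 4 higher were Col3a1 (0.34), Pdgfra (0.47), Dcn (0.64) and Fbln1 (0.81). Macrophage genes were detected in all 9 libraries, with 14 tested. Of these, 3 were higher (21.4%), near the 22% of all genes, and 1 was lower (7.14%), against 21.8%. The 3 were Cd68, Fcgr1 and Fcer1g (0.38, 0.97 and 0.29), and the 1 lower was lysozyme, Lyz2 (-0.58).

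Of epithelial markers, 3 of 5 were higher and 1 lower, against 22% and 21.8% of all genes. The keratins Krt8 and Krt18 differed by 2.30 and 2.02. The tight junction gene Cldn4 differed by 3.40 at a low level, with 109 counts over the p53KO libraries and 4 over the WT libraries. The keratin Krt19 was lower (-0.42). The summed level of the list was 50.7 to 55.8 CPM in p53KO and 36.1 to 38.6 CPM in WT libraries. The defining epithelial genes Epcam, with 0 to 3 counts per library, and Cdh1, with 1 to 6, were too low to be tested. Of 5 endothelial markers tested, 2 were higher, Kdr (1.06) and Erg (0.34), and 1 was lower, Emcn (-0.42). The calls of Erg and Emcn were lost in the line totals (adjusted p = 0.12 and 0.158). In skeletal muscle the single call was Actc1 (1.89), with 83 counts over the p53KO libraries and 9 over the WT libraries. Globin genes Hba-a1, Hbb-bt and Hbb-bs had 0 counts in all 9 libraries.

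Most markers of cartilage and bone were lower. Of 8 cartilage and bone genes, 5 were lower and 1 higher, against 21.8% and 22% of all genes. Their summed levels were 120.1 to 136 CPM in p53KO and 219.9 to 248.7 CPM in WT libraries. Ibsp, bone sialoprotein, had 0.174, 0.302 and 0 CPM in KO-1 and 1.83, 2.12 and 1.84 CPM in KO-2, against 25.01, 29.4 and 30.3 CPM in WT (log2 difference -4.69, SE 0.30, adjusted p = 1.02e-08). It was near 0 in KO-1 and at a small share of the WT level in KO-2. Alpl, alkaline phosphatase of bone, and the cartilage collagen Col2a1 were lower (-3.71 and -1.13), as were Acan (-0.37) and the bone factor Sp7 (-1.94), while the cartilage factor Sox9 was higher (0.24). Of 8 neural and glial markers, 3 were higher and 3 lower, against 22% and 21.8% of all genes. Their summed levels were 225 to 285 CPM in p53KO and 174 to 199 CPM in WT libraries. Nes made up a large part of them, at 178 ± 21.8 CPM in p53KO libraries and 109 ± 8.75 CPM in WT libraries. Sox10, the factor of neural crest and glia, averaged 0.324 ± 0.159 CPM in p53KO libraries and 3.22 ± 0.438 CPM in WT libraries (log2 difference -3.20, SE 0.31, adjusted p = 8.05e-07), and Ngfr, the neurotrophin receptor, averaged 1.15 ± 0.317 CPM in p53KO libraries and 11.3 ± 2.38 CPM in WT libraries (log2 difference -3.26, SE 0.20, adjusted p = 5.34e-09). Nes, nestin (0.71), Tubb3 (0.45) and Gfap (2.60) were higher. The part of such cells in the other differences was not tested.

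The largest differences outside these lists were chosen by size among genes with a symbol and at least 5 CPM whose p53KO and WT libraries did not overlap. Pgm5, a phosphoglucomutase-like protein of cell junctions, had a lowest of 71.2, a median of 76.8 and a highest of 81.7 CPM in the 6 p53KO libraries, against 11.5, 12.7 and 13.7 CPM in the 3 WT libraries (log2 difference 2.61, SE 0.08, adjusted p = 1.18e-12). Aldh1a2, which makes retinoic acid in the embryo, had a lowest of 58.8, a median of 61.0 and a highest of 66.6 CPM in the 6 p53KO libraries, against 9.89, 10.8 and 10.4 CPM in the 3 WT libraries (log2 difference 2.57, SE 0.07, adjusted p = 1.15e-12). Both were several-fold above WT in each p53KO library. Bex1 (3.27), the microtubule regulator Stmn4 (3.25), Plcl1 (2.72), the kinase anchor Akap5 (2.70) and the polarity gene Crb2 (2.58) were also among the 10 with the largest rise. So was Eif5al3-ps (4.41), by its symbol a pseudogene related to Eif5a. Whether the pseudogene shares reads with other genes was not tested, so that its value is uncertain.

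On the lower side stood Ano3, of the anoctamin family of channels and scramblases, which had 0 counts in the 6 p53KO libraries and 12.01, 13.7 and 10.8 CPM in WT. Set against a floor of 3 counts over the 6 libraries, it was at least 243-fold lower in p53KO. Inka2, an inhibitor of the kinase Pak4, averaged 0.389 ± 0.244 CPM in p53KO libraries and 19.5 ± 0.873 CPM in WT libraries (log2 difference -5.60, SE 0.22, adjusted p = 2.38e-11), and Cd80, a costimulatory ligand of T cells, averaged 0.613 ± 0.448 CPM in p53KO libraries and 20.4 ± 3.11 CPM in WT libraries (log2 difference -5.03, SE 0.23, adjusted p = 1.90e-10). Both had almost no reads in p53KO. Lrrtm3 (-3.65) and the inner ear protein gene Coch (-3.40) followed.

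Genes beside Trp53 on chromosome 11 were examined as neighbours of the targeted gene. Of 81 tested genes within 2 Mb of Trp53 on mm9, itself not counted, 38 were called (46.9%), 25 higher and 13 lower, near the 43.9% called on other chromosomes. Of the 81, 9 were at least 2-fold higher and none at least 2-fold lower, 11.1% in all, against 6.46% of genes on other chromosomes. The share at 2-fold was 12.1% of the 33 genes from 2 to 5 Mb away and 4.23% of the 142 from 5 to 10 Mb. Eno3, the muscle enolase, had a lowest of 65.4, a median of 66.7 and a highest of 71.7 CPM in the 6 p53KO libraries, against 16.9, 15.9 and 15.9 CPM in the 3 WT libraries (log2 difference 2.05, SE 0.06, adjusted p = 2.56e-12). Slc2a4, the insulin-responsive glucose transporter, lay 359 kb from Trp53, middle to middle, and differed by 3.17. The nearest of the 9 were Atp1b2, 16.7 kb away (2.28), and Efnb3, 29.0 kb away (2.58). Bcl6b (2.36), Usp43 (2.11), Fgf11 (1.28), 2810408A11Rik (1.29) and 6330403K07Rik (1.5) completed the 9. Apart from Eno3, the 9 were at a low level. Their WT means ran from 0.233 CPM (Efnb3) to 1.76 CPM (6330403K07Rik). Their p53KO means ran from 1.28 CPM (Usp43) to 6.98 CPM (Slc2a4). By distance, 51.7% of genes were called within 1 Mb, 33.3% from 1 to 2 Mb and 54.5% from 2 to 5 Mb.

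**Figure D5:**
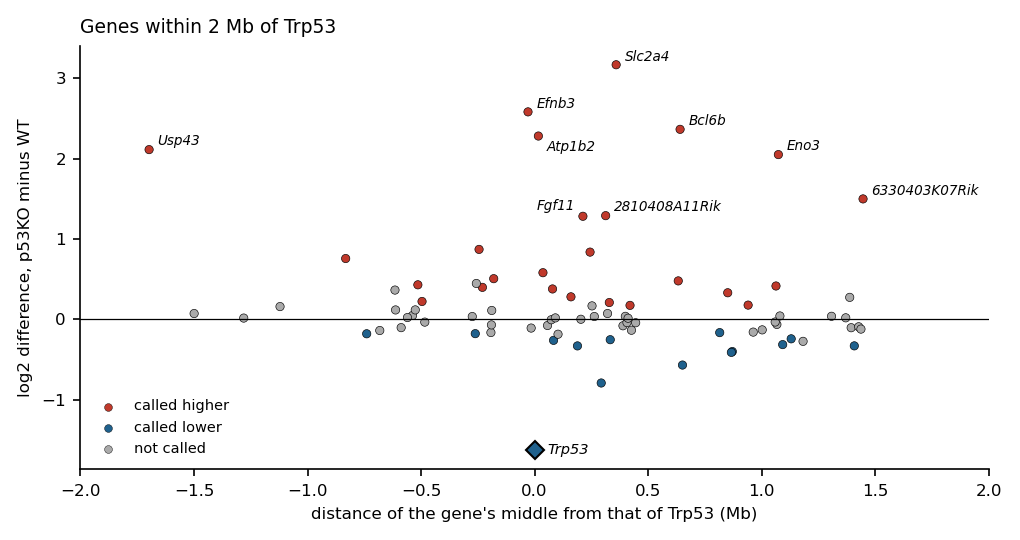
Difference between genotypes at 0 h (vertical axis, log2 of p53KO over WT) of genes within 2 Mb of Trp53 against the distance between the middles of the genes (horizontal axis, Mb). Each point is 1 gene, coloured by its call. Trp53 lies at -1.63, and of its 81 neighbours 9 lie at least 2-fold above WT and none at least 2-fold below.

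KO-1 and KO-2 differed from each other by less than either did from WT. At 0 h 1653 genes (12.8%) were called between them, 993 with KO-1 above and 660 with KO-1 below, and 36 (0.278%) differed at least 2-fold. Without the time course as a block 737 genes were called, by DESeq2's test 410, and with any 1 of the 6 libraries left out 896 to 1174. For 2539 of the 2854 higher and 2600 of the 2822 lower genes, both KO lines lay on the same side of WT and the smaller of their gaps to WT was larger than the gap between them, as for 58.5% of all genes tested. The genes named for a difference between the lines had a symbol, at least 5 CPM in the higher line and no overlap between KO-1 and KO-2 libraries. Among those with KO-1 furthest above KO-2 was Mid1, a ubiquitin ligase of microtubules, with 62.8, 62.8 and 62.2 CPM in KO-1, 33.4, 30.4 and 32.6 CPM in KO-2 and 53.8, 49.8 and 60.05 CPM in WT. Its KO-1 minus KO-2 difference was 0.96, with WT between the lines. mt-Nd6 (0.99) and Trim30d (1.00) were also higher in KO-1 than in KO-2. Under the same conditions, which Ibsp did not meet, KO-1 lay furthest below KO-2 at Pou3f3, a POU-domain factor (-1.83), Mmp13, a collagenase (-1.10), and Prss12 (-0.98).

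The difference between the KO lines moved with transcript length. Taking the longest transcript of each gene in GENCODE M21, known for 12729 of the 12960 genes (98.2%), the median KO-1 minus KO-2 difference was -0.11 for the 617 genes under 1 kb, -0.07 from 1 to 2 kb, -0.02 from 2 to 4 kb, 0.04 from 4 to 8 kb and 0.15 for the 762 over 8 kb. The p53KO minus WT medians over the same classes were -0.07, -0.02, -0.01, 0.03 and 0.17. For KO-1 against the shared WT libraries they were -0.12, -0.06, -0.03, 0.05 and 0.24. For KO-2 they were -0.013, 0.006, -0.001, 0.005 and 0.068, so the change with length was larger in KO-1. Of the genes over 8 kb, 40.9% were higher and 12.5% lower in p53KO, and of those under 1 kb 11.3% were higher and 19.4% lower. The median length was 2.73 kb for the p53 targets, 2.66 kb for interferon-stimulated genes, 5.35 kb for collagen and matrix genes and 3.45 kb for all genes. The part of length in the differences of long genes was not tested.

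The same lines after stimulation, in 24 p53KO and 12 WT libraries that the 0 h fit did not use, gave 4105 genes higher (31.7%) and 3853 lower (29.7%) with time course and hour as a joint factor. Of the 2854 genes higher at 0 h, 2505 (87.8%) were higher there and 5 were lower. Of the 2822 lower at 0 h, 2402 (85.1%) were lower there and 10 were higher. The called genes of the 0 h comparison were 61.0% of the higher and 62.3% of the lower genes of the stimulated libraries. Of those at least 2-fold apart at 0 h, 526 of 550 higher and 283 of 287 lower genes were called in the same direction. Trp53 differed by -1.63, Cdkn1a by -3.60 and Mdm2 by -1.66 in the stimulated libraries. The p53 targets had a median of -0.90 and the interferon-stimulated genes one of 1.24 there, with 31 of 33 higher and 1 lower. Replication and mitosis genes were 23 of 40 higher and 6 lower after stimulation, where 5 were higher and 11 lower at 0 h. These libraries come from the same lines, so they repeat the measurement and not the embryos.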

How the data were processed

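The deposited table holds raw read counts per gene, made by the authors from poly(A) RNA that was sequenced in pairs after a stranded library kit, per the labels' protocols. The submitters' processing notes name STAR, featureCounts and DESeq and the mouse build mm9. The annotation release, filters and the strand setting of the counting are not given in the sources used here. The table holds 37991 genes with Ensembl IDs and mm9 coordinates, of which 32919 were given a symbol from GENCODE M21. Lines that name no gene were left out: they held 3.00 to 3.93% (no feature), 0.698 to 0.759% (ambiguous) and 18.8 to 20.8% (not unique) per library.

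Counts of the 9 libraries were tested in R 4.3.3 with edgeR 4.0.16 (TMM scaling, glmQLFit and glmQLFTest, time course as a block, Benjamini-Hochberg adjustment). A gene was kept where 3 or more libraries reached 1 CPM of the library total, which left 12960. The CPM of genes and the summed levels of lists were computed on TMM-scaled library sizes. Library totals of 7621412 to 11348859 counts set the precision, and the common biological coefficient of variation was 0.0516. The procedure was also run on simulated counts, drawn independently for each library with no difference between lines or courses. That run cannot show how the test behaves where libraries of a line are not independent. Libraries of the same course and different lines deviated together from their line means, with r of 0.13 to 0.40 over 9 pairs. Libraries of different courses and different lines had r of -0.30 to 0.13 over 18 pairs. It was 0.02 to 0.13 between the IL-1b and LPS courses and -0.30 to -0.13 between TNF and either. Within a line, IL-1b and LPS libraries differed by 1.35 to 1.71 times the variance of pure counting. The TNF library differed from either by 2.71 to 3.79 times. Whether the IL-1b and LPS libraries of a line share a culture was not tested. The course is a block in the design of the comparison. KO-1 against KO-2 used the same test on 6 libraries, and the stimulated libraries used it on 36. Alternatives were limma 3.58.1 (voom with the line as a random effect), DESeq2 1.42.0, sums per line, each KO line alone, other filters and each library or course left out. The call at 2-fold was added after the data were seen.

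Genes were named by rule: Trp53, the 10 largest differences in each direction among called genes with a symbol and at least 5 CPM whose genotypes did not overlap, up to 6 called members with the smallest adjusted p of each p53 target list and up to 3 of each other list, and 3 genes in each direction between the KO lines. Other genes were named after their values were seen, and some genes that the rule names are not reported here. The members and the lists were chosen with earlier results of these data known.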

Additional observations from a re-analysis of the deposited data

Results flagged for a closer look

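Of the 106 named genes reported here, 33 differed between KO-1 and KO-2 at an adjusted p under 0.05 in edgeR's quasi-likelihood test of the 6 p53KO libraries, and their values are log2 of KO-1 over KO-2. The 6 chosen for this difference were Mid1 (0.96), mt-Nd6 (0.99), Trim30d (1.00), Pou3f3 (-1.83), Mmp13 (-1.10) and Prss12 (-0.98). Of the others, KO-1 was above KO-2 at Stmn4 (0.49), Ifit1 (0.36), Xist (0.36), Nes (0.32), Bst2 (0.31), Ccn2 (0.26), Lyz2 (0.18), Csf1 (0.17), Ccn1 (0.13) and Vim (0.10). KO-1 was below KO-2 at Ibsp (-3.40), Bex1 (-0.58), Coch (-0.53), Plcl1 (-0.53), Cxcl5 (-0.46), S100a4 (-0.41), Mt2 (-0.39), Mt1 (-0.37), Il1rl1 (-0.37), Col18a1 (-0.35), Cdkn2a (-0.32), Igfbp5 (-0.26), Wt1 (-0.24), Ccnd1 (-0.22), Cdkn1c (-0.15), Rps27l (-0.15) and H19 (-0.11). Ibsp, the bone sialoprotein gene, had the widest gap between the KO lines among these. Apart from Mid1, which was not called against WT, each of the 33 lay on the same side of WT in KO-1 as in KO-2.

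In 3 of the 106 genes 1 of the 6 p53KO libraries stood apart from the others, where chance flags about 1 in 20 groups. The KO-2 library of the LPS course was highest for Hoxd12, at 16.5 CPM, and lowest for Hoxa5, at 12.1 CPM. The KO-1 library of the TNF course was lowest for Thy1, at 267 CPM.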

How the results depend on the processing

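With the counts summed per line, 1805 genes were higher and 1487 lower in p53KO, and with a 2-fold rule 550 and 287, a rule added after the data were seen. In the fits with no replicate block, where the time course no longer pairs the libraries, 2828 genes were higher and 2713 lower between the genotypes, close to the blocked 2854 and 2822, but 737 were called between KO-1 and KO-2 in place of 1653. For KO-1 against KO-2, DESeq2's test gave 410 and the 2-fold rule 36, and the cause of these differences was not tested. Leaving out 1 library at a time gave 2063 to 2843 higher and 2090 to 2849 lower genes between the genotypes, 896 to 1174 genes between the KO lines and a Trp53 difference of -1.68 to -1.57. DESeq2's test gave 2111 higher and 2216 lower genes, and limma-voom with the line as a random effect 2211 and 2356.

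Under every alternative run other than the 2-fold rule, Trp53 kept its direction and call, and the p53 target counts stayed within 1.5 times the reported count. With the 2-fold rule, which can only lower a count, 10 of 15 lower arrest targets, 6 of 12 lower cell death targets and 7 of 10 lower and 0 of 4 higher repair and metabolism targets were left. Mid1, which was not called against WT (-0.20), stood at 0.20 with KO-1 alone, the sole reversal among the named genes. Ppp1r13l, Xist, Erg, Emcn, mt-Nd6, Trim30d and Pou3f3 missed the threshold under at least 1 alternative. That rule aside, higher replication and mitosis genes ranged from 1 to 9. With KO-2 alone, 19 replication genes were lower, 5 imprinted genes lower and 5 proteases higher, and with KO-1 alone 5 fibroblast markers were lower and 5 macrophage markers higher. With a filter at 5 CPM, 2 chemokines were higher, 1 neural marker lower and 3 cartilage markers lower.

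WT is 1 line, so that line and genotype cannot be told apart, and no fit of these libraries changes that. The labels do not say whether libraries of 1 line are repeats of 1 culture. Counting error limits genes near 1 CPM, such as Sox10, and Dglucy in p53KO, more than Cdkn1a.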

Other observations

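Sex-linked genes were examined in all 9 libraries. The Y-linked genes Ddx3y, Uty, Kdm5d and Eif2s3y had 0 counts in every library, and Xist, the RNA of the inactive X chromosome, was detected in both genotypes, at 339 ± 48.9 CPM in p53KO libraries and 281 ± 25.3 CPM in WT libraries (SD, n = 6 and 3). Xist was called higher in p53KO (log2 difference 0.27, adjusted p = 0.0279 in edgeR's test), with 0.43 for KO-1 and 0.08 for KO-2 against WT. The call was lost in the line totals (adjusted p = 0.0965). The median difference of X-linked genes was 0.08 for KO-1 and 0.05 for KO-2 against the shared WT libraries, over 469 tested genes. The next largest chromosome medians were 0.03, on chromosome 6 for KO-1 and on chromosome 11 for KO-2.

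Several genes were nearly silent in 1 genotype. Foxd3, a transcription factor of the neural crest, had 3 counts over the 6 p53KO libraries and 41 over the 3 WT libraries, a ratio of WT over p53KO of 32.9 with a 95% counting interval of 10.5 to 166. Fut9, a fucosyltransferase, had 65 counts in p53KO and 0 in WT, at least 8.99-fold higher against a floor of 3 counts over the WT libraries. Smyd1, a muscle methyltransferase, had 63 counts in p53KO and 1 in WT, a ratio of p53KO over WT of 26.2 with an interval of 4.53 to 1049. The intervals cover counting error only.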
